A study of Arabidopsis thaliana with 6 samples.

Results

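The NIN-like proteins (NLPs) of Arabidopsis are a family of 9 transcription factors, NLP1 to NLP9, and their transcripts were followed in seedlings held at low nitrate. The 9 genes were taken by their locus identifiers from 38150 identifiers measured in each library given for the family. All 9 were found, and all 9 passed the filter on low values, which asked for at least 1 FPKM in at least 3 of the 6 libraries. FPKM are fragments per kilobase of transcript, scaled to the fragments of the library, so levels of different genes can be set side by side.

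NLPs carry the RWP-RK domain, a DNA-binding domain, and a PB1 domain through which they pair with one another and with other proteins. Nitrate acts on them mainly after translation. In NLP7, calcium-dependent kinases phosphorylate the protein when nitrate arrives, and the protein then stays in the nucleus and switches on genes of nitrate uptake, reduction and signalling. Transcript levels of the family are therefore one layer of its regulation, and the levels of its target genes are another.

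The series compared the wild-type accession Col-0 (WT) with the nid1 knockout mutant, in 3 libraries each, labelled as whole plants of 9 days. Seedlings were grown with 20 mM nitrate on half-strength MS medium, moved to medium deficient in nitrate, and then received 0.05 mM nitrate for 6 h, so both genotypes share the low supply and no high-nitrate group was analysed here. The labels name no locus or allele for nid1, so its transcript was not checked, and they do not say whether replicates are separate cultures. P-values then measure only the spread between these libraries, which may be technical.

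As a check of the tissue label, all 13 root markers were detected, with CASP1, a Casparian strip protein, at 182 ± 21.5 FPKM in WT (SD, n = 3). Of these 13, 10 passed the filter, and PLT2, WOX5 and FEZ fell under it. Stomatal markers were low but present, led by FAMA, a guard cell factor, at 4.95 ± 0.560 FPKM. The trichome factor GL1 lay under 0.1 FPKM in every library and was listed at 0 in nid1 replicates 2 and 3. Summed levels of 11 green shoot markers ranged from 397 to 565 FPKM in WT libraries and from 750 to 1328 FPKM in nid1. Those of the root markers ranged from 328 to 425 FPKM in WT libraries and from 397 to 412 FPKM in nid1. The summed green markers thus did not overlap between the genotypes, while the root sums did. Of the 11 green markers, a list chosen with earlier results of these data known, limma called 0. At an unadjusted p under 0.05 limma had 10 of them higher, against 3.65% of all genes. Fewer cells of a type and less RNA per cell cannot be told apart in such libraries, and the part of this difference in the NLP values was not tested.

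The RWP-RK signature that names the family is shown as coding DNA, because it is the feature that all 9 members share and because it bears on whether reads can be assigned to single members. Each line gives 42 bases of the coding strand in TAIR10.1, read 5′ to 3′ from the reference genome, with the 6 codons of the signature in capitals.
NLP1: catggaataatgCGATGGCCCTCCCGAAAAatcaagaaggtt
NLP2: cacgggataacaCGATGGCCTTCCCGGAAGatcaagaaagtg
NLP3: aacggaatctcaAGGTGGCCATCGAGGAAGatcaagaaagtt
NLP4: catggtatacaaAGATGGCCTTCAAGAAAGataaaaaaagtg
NLP5: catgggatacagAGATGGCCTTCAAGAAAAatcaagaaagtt
NLP6: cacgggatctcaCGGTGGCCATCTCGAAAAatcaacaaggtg
NLP7: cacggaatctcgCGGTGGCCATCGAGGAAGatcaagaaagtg
NLP8: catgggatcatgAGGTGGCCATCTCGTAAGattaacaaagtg
NLP9: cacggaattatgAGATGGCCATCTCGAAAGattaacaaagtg

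These windows lie within single exons, for NLP7 at chr4:12482818-12482859 on the plus strand, for NLP8 at chr2:18065448-18065489 on the plus strand and for NLP1 at chr2:7467811-7467852 on the minus strand. The capitals spell the signature with different codons from gene to gene, and the longest annotated coding sequence of each gene holds it 1 time. Other annotated forms were not searched. Over the 36 pairs of members the 42 bases were between 66.7% and 90.5% identical, with NLP3 and NLP7 the most alike at 90.5% and NLP8 and NLP9 next at 88.1%. The longest identical run between the annotated transcripts of any pair was 44 bases, between NLP1 and NLP2. That is shorter than the 101-base reads, so a whole read from a member's own exons has no identical copy in another member.

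The genes are spread over chromosomes 1 to 4. In the files the members are listed as gene-AT2G17150 (NLP1), gene-AT4G35270 (NLP2), gene-AT4G38340 (NLP3), gene-AT1G20640 (NLP4), gene-AT1G76350 (NLP5), gene-AT1G64530 (NLP6), gene-AT4G24020 (NLP7), gene-AT2G43500 (NLP8) and gene-AT3G59580 (NLP9). NLP7 spans 12479528 to 12484049 on chromosome 4 and NLP6 spans 23959627 to 23963083 on chromosome 1. Of the 9 members, 6 share no exonic base with another annotated gene. NLP5 shares the largest part, 749 of its 3357 exonic bases. Of these, 700 are shared with the antisense non-coding RNA AT1G09617, which measured 1.22 ± 0.380 FPKM in WT. NLP4 shares 462 of 3547 exonic bases with AT1G20650 on the other strand, and NLP1 shares 89 of 4642. AT1G20650 was more abundant than AT1G09617, averaging 15.9 ± 1.72 FPKM over WT libraries, while its nid1 libraries averaged 17.9 ± 2.66 FPKM. The number of shared bases thus does not by itself rank how exposed these members are, and the effect on their values was not tested. The libraries were made with a stranded kit, but no source used here gives the strand setting of the counting, so values of these 3 members are uncertain to that extent.

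All 9 members were transcribed at moderate levels in every library, between 4.24 and 33.6 FPKM, and they fell into a steady order. NLP5 was the highest member in each library, with a mean of 29.3 ± 3.59 FPKM over the 6 libraries (SD). NLP4 followed at 24.4 ± 2.76 FPKM and NLP8 at 22.95 ± 3.96 FPKM. NLP2, at 19.6 ± 3.24 FPKM, and NLP7, at 16.1 ± 3.29 FPKM, took the middle. NLP6 was sixth in every library, at 11.0 ± 1.93 FPKM. At the low end stood NLP3 at 7.73 ± 1.88, NLP1 at 7.34 ± 0.610 and NLP9 at 6.02 ± 1.104 FPKM. The best studied members, NLP6 and NLP7, were thus not the most abundant ones in these seedlings.

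Of the 8 pairs of neighbours in this order, 5 kept it in all 6 libraries, although the ranges over libraries overlapped in all 8. NLP7 lay above NLP6 within each library by 0.51 ± 0.17 on the log2(FPKM + 1) scale (mean ± SD of 6 within-library differences), and NLP6 lay above NLP3 by 0.47 ± 0.19. The other 3 pairs changed places in at least 1 library. NLP4 was above NLP8 in 5 of 6 libraries by 0.10 ± 0.13, NLP2 above NLP7 in 5 of 6 by 0.27 ± 0.20 and NLP3 above NLP1 in 4 of 6 by 0.04 ± 0.24. NLP4 with NLP8 and NLP3 with NLP1 therefore did not differ beyond their spread.

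**Figure D1:**
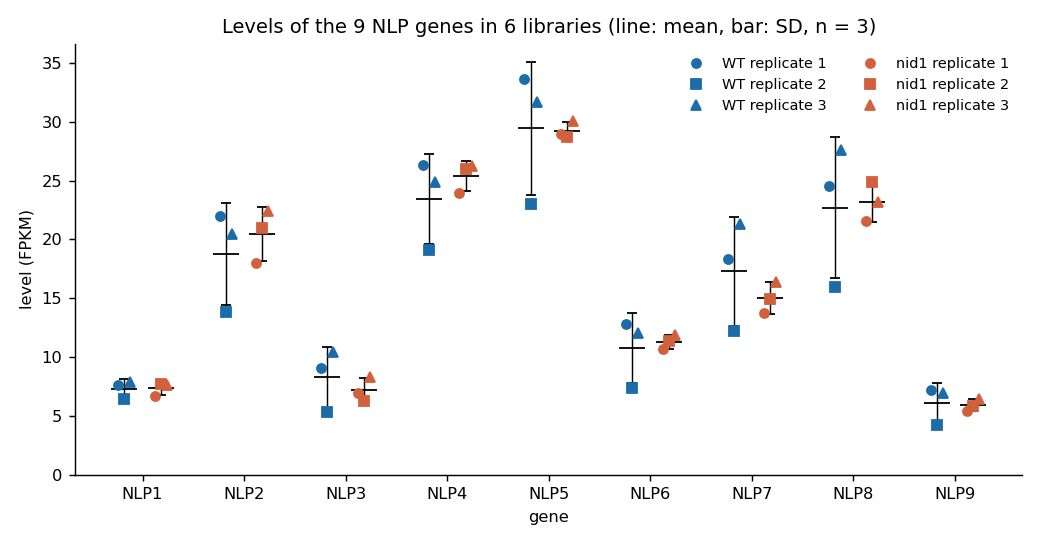
Levels in FPKM (vertical axis) of the 9 NLP genes (horizontal axis) in each of the 6 libraries, WT in blue and nid1 in orange, with the mean as a line and the SD as a bar (n = 3 each). WT replicate 2, the blue square, is the lowest point of all 9 genes, and NLP5 is the highest gene in each library.

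The closest relatives of the family showed almost no transcript. RKD1 to RKD5 carry the RWP-RK domain and are known from egg cells and embryos. RKD1 and RKD4, the latter a regulator of the early embryo, were listed at 0 in all 6 libraries. RKD2 reached at most 0.0778 FPKM and RKD3 at most 0.115 FPKM. RKD5 measured 0.883 ± 0.217 FPKM in Col-0 plants and 0.748 ± 0.0781 FPKM in nid1. None of the 5 passed the filter, so among the 14 genes of both groups the tested ones were the 9 NLPs.

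The main regulators of the primary nitrate response, NLP6 and NLP7, are described first. NLP7 binds many nitrate-response genes and is known as an intracellular nitrate sensor. It measured 18.3, 12.2 and 21.3 FPKM in the WT libraries (replicates 1, 2 and 3) against 13.7, 14.9 and 16.4 FPKM in the nid1 ones. WT replicates 1 and 3 lay above all nid1 libraries and WT replicate 2 below all of them, so the groups overlapped. The limma log2 fold change of NLP7, nid1 minus WT, was -0.16 with an SE of 0.20, a 95% interval of -0.62 to 0.29 and an adjusted p of 1.00.

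NLP6, which acts with NLP7 in nitrate responses, measured 12.8, 7.37 and 12.05 FPKM in Col-0 plants and 10.7, 11.4 and 11.9 FPKM in nid1. The same WT library was low, and the other 2 WT libraries stood just above the nid1 range. Its log2 fold change was 0.10 (SE 0.20, 95% interval -0.35 to 0.55, limma adjusted p = 1.00). NLP6 and NLP7 thus had estimates on opposite sides of 0, and neither passed the test.

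NLP8 is known for nitrate-promoted seed germination, where it activates CYP707A2, a gene of abscisic acid breakdown, and NLP9 resembles it most in the windows shown above. NLP8 measured 24.6, 15.98 and 27.6 FPKM in Col-0 plants and 21.5, 24.9 and 23.2 FPKM in nid1. NLP9 measured 7.20, 4.24 and 6.99 FPKM in Col-0 plants and 5.39, 5.88 and 6.42 FPKM in nid1. In both genes the nid1 values lay inside the WT range. The log2 fold changes were 0.06 for NLP8 (95% interval -0.39 to 0.52) and -0.02 for NLP9 (95% interval -0.46 to 0.42), both with a limma adjusted p of 1.00. CYP707A2 itself measured 6.11 ± 2.03 FPKM in Col-0 plants and 5.73 ± 0.813 FPKM in nid1 (limma adjusted p = 1.00).

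NLP1 to NLP3 stand next. NLP2 measured 22.0, 13.8 and 20.5 FPKM in Col-0 plants and 17.96, 21.0 and 22.4 FPKM in nid1. NLP3, whose window resembles that of NLP7, measured 9.04, 5.37 and 10.4 FPKM in Col-0 plants and 6.97, 6.28 and 8.29 FPKM in nid1. NLP1 showed the narrowest WT range of the family relative to its level, with 7.64, 6.44 and 7.92 FPKM in Col-0 plants and 6.70, 7.70 and 7.64 FPKM in nid1. In NLP2 the highest value came from nid1, and in NLP1 and NLP3 from WT. Their log2 fold changes were 0.14 (NLP2, 95% interval -0.29 to 0.57), -0.15 (NLP3, -0.66 to 0.37) and 0.00 (NLP1, -0.29 to 0.30), and limma gave an adjusted p of 1.00 for each.

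The pair with the highest levels, NLP4 and NLP5, shares a run of 38 identical bases and is 85.7% identical over the printed window. NLP5 measured 33.6, 23.1 and 31.6 FPKM in Col-0 plants and 28.9, 28.7 and 30.1 FPKM in nid1. NLP4 measured 26.3, 19.1 and 24.9 FPKM in Col-0 plants and 23.9, 25.99 and 26.2 FPKM in nid1. WT replicate 2 was again the lowest, and the nid1 values were close together, with an SD of 0.731 FPKM for NLP5 against 5.63 FPKM in WT. The log2 fold changes were 0.01 for NLP5 (95% interval -0.35 to 0.37) and 0.12 for NLP4 (95% interval -0.21 to 0.45), both with a limma adjusted p of 1.00.

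In all, limma called 0 of the 9 NLP genes at an adjusted p under 0.05, against 18 of 20533 genes tested, or 0.0877% (13 higher in nid1, 0.0633%, and 5 lower, 0.0244%). At an unadjusted p under 0.05 there were also 0 of 9, against 6.21% of all genes, and 0 of 9 had groups that did not overlap, against 10.3% of all genes. The median log2 fold change of the family was 0.01 and that of all genes 0.00. The intervals were widest in NLP3, at -0.66 to 0.37, and narrowest in NLP1, at -0.29 to 0.30, so these data do not show that the levels are equal.

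WT replicate 2 held the lowest value of all 9 members, whereas over all tested genes it was the lowest library in 22.9% and the highest in 37.3%. The SD on the log2(FPKM + 1) scale was larger in WT than in nid1 for 9 of 9 members, with medians of 0.36 and 0.10. No share over all genes is given beside this count. Summed over the 9 members, the level was 162, 108 and 163 FPKM in the WT libraries (replicates 1, 2 and 3) against 136, 147 and 153 FPKM in the nid1 ones. WT replicate 2 stood below every other library and the other 2 WT libraries above every nid1 library.

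Transcript length moved with this pattern across the whole table. NLP transcripts are long, from 2539 bases in NLP3 to 4292 bases in NLP1 by the longest annotated form, and 7 of 9 reach 3 kb. Among the 2109 tested genes with transcripts of 3 kb or more, WT replicate 2 was the lowest library in 83.1%, and its median deviation from the 6-library mean was -0.32 on the log2(FPKM + 1) scale. Among the 3817 tested genes under 1 kb it was the lowest in 5.37% and the highest in 60.5%, with a median deviation of 0.35. The other libraries had weaker trends. The steepest of them ran the opposite way, from -0.12 under 1 kb to 0.17 at 3 kb or more in WT replicate 3. The deviations went from -0.16 to 0.08 in WT replicate 1 and from -0.11 to 0.09 in nid1 replicate 3. They went from 0.04 to 0.05 in nid1 replicate 2 and from 0.03 to -0.09 in nid1 replicate 1. The 6-library mean includes WT replicate 2, so its trend by itself shifts the deviations of the other libraries the opposite way on average.

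The median deviation of the NLP genes in WT replicate 2 was -0.41. It was as large in the 2 members under 3 kb, at -0.43 in NLP3 and -0.50 in NLP6, while genes of 2 to 3 kb had a median of -0.08. NLP1, the longest, deviated least, by -0.16. After each library's trend on length was subtracted, a step chosen after the values were seen, the median NLP deviation in WT replicate 2 was -0.12 and that library was the lowest in 6 of 9 members and the highest in NLP1. The median SD was then 0.16 in place of 0.36 in WT, and 0.06 in place of 0.10 in nid1, so it stayed larger in WT. What made WT replicate 2 differ by length was not tested.

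**Figure D2:**
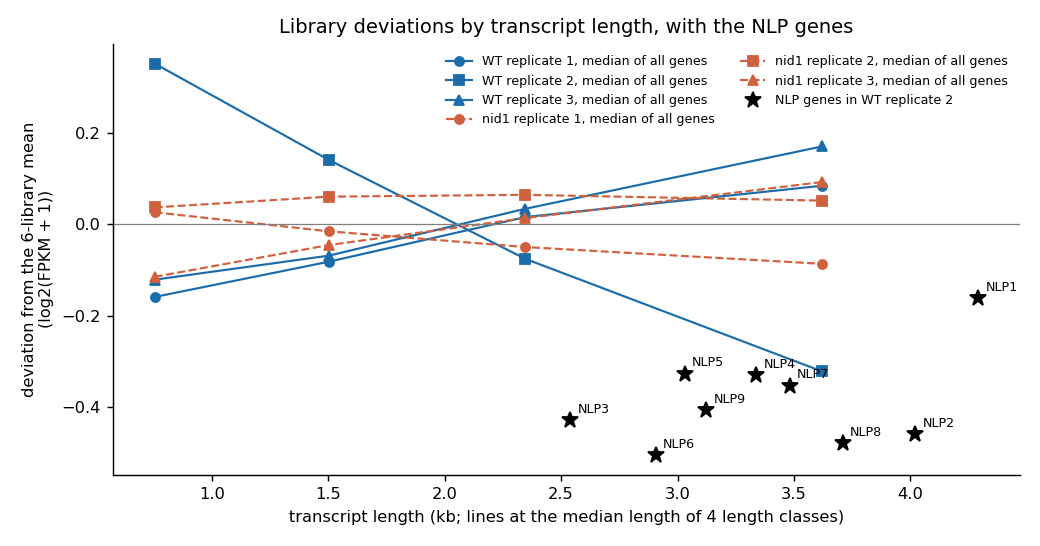
Deviation of each library from the 6-library mean (vertical axis, log2(FPKM + 1)) against transcript length in kb (horizontal axis), as medians of all tested genes in 4 length classes, with the NLP genes in WT replicate 2 as stars. The line of WT replicate 2 runs from 0.35 in the shortest class to -0.32 in the longest, and all 9 stars lie below 0.

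Leaving out WT replicate 2 put the estimates of all 9 members below 0 without any call. NLP7 then had a log2 fold change of -0.38 (95% interval -0.66 to -0.09, limma unadjusted p = 0.0167, adjusted p = 0.276). NLP3 had -0.40 (95% interval -0.73 to -0.06, limma unadjusted p = 0.0262, adjusted p = 0.316). In the other 7 the interval included 0, with estimates from -0.23 in NLP9 to -0.01 in NLP4. Both remaining WT libraries lay above every nid1 library in 5 members, NLP3, NLP5, NLP6, NLP7 and NLP9. That pattern held for 12.4% of all tested genes and for 29% of those with transcripts of 3 kb or more. Of the 7 members of 3 kb or more, NLP5, NLP7 and NLP9 showed it, while NLP3 and NLP6 are shorter. At an unadjusted p under 0.05, 2 of 9 members were lower, against 3.93% of all genes in that direction, and 0 were called against 0.122%.

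With all 6 libraries and the length trend removed, NLP7 had the estimate farthest from 0 of the family, at -0.20 (SE 0.11, 95% interval -0.45 to 0.05, limma adjusted p = 0.649). In the fit to values as deposited, leaving out WT replicate 3, its highest library, put the NLP7 estimate at -0.00099. The size of the estimate from values as deposited thus rests on single WT libraries. Leaving out a library was not combined with removing the length trend. With that trend removed, NLP3 followed NLP7 at -0.17 (SE 0.19, limma adjusted p = 0.888). The estimates of the other 7 ranged from -0.06 in NLP9 to 0.10 in NLP2. Thus 0 of 9 members were called in this fit too, against 0.122% of all genes, 0 passed an unadjusted 0.05, and NLP2, NLP4, NLP6 and NLP8 lay above 0 here and below 0 without WT replicate 2.

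**Figure D3:**
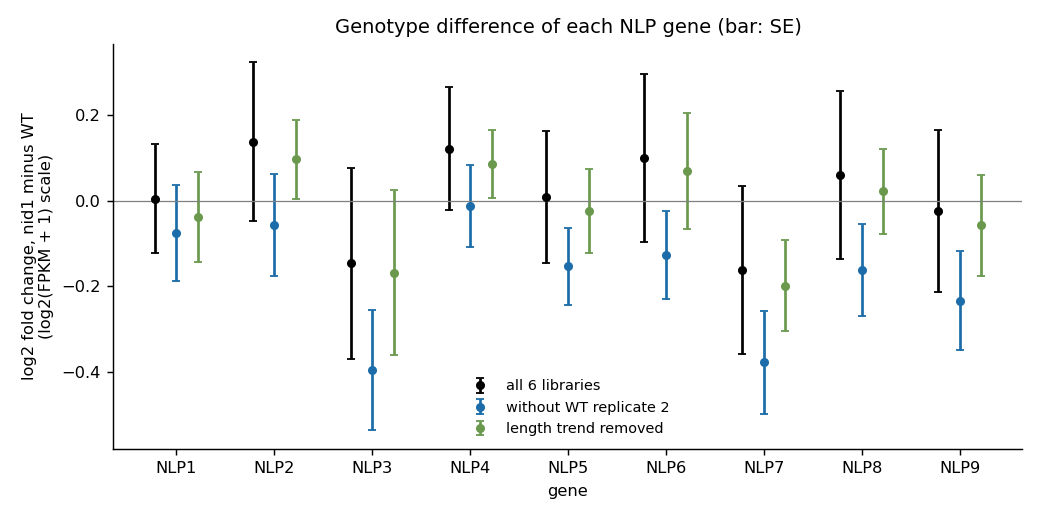
Log2 fold change of each NLP gene, nid1 minus WT, on the log2(FPKM + 1) scale (vertical axis; bar: SE), from all 6 libraries, without WT replicate 2, and with each library's length trend removed. NLP7 lies below 0 in all 3 fits shown, at -0.16, -0.38 and -0.20, and no gene passed the test in any of them.

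The make-up of the family's own transcript pool was as follows. As a share of the summed FPKM, NLP5 held from 19.4% to 21.4%, NLP4 from 15.2% to 17.8% and NLP8 from 14.9% to 16.95%. NLP9 held the least, from 3.94% to 4.46%. Shares did not overlap between the genotypes in 1 of 9 members, NLP7, a proportion close to the 10.3% of all genes whose FPKM did not overlap. It held 11.3%, 11.4% and 13.1% in the WT libraries (replicates 1, 2 and 3) against 10.11%, 10.2% and 10.8% in the nid1 ones, that is 11.9% ± 0.985 against 10.3% ± 0.365 (SD, n = 3 each). This share was picked from 9 after the values were seen, so it is given without a test.

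**Figure D4:**
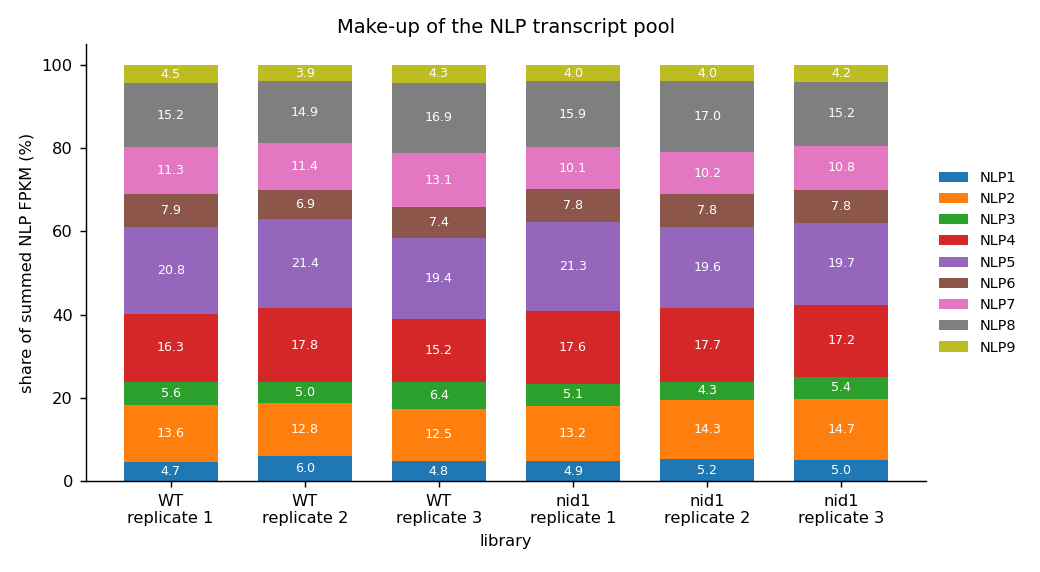
Share of each NLP gene in the summed FPKM of the 9 genes (vertical axis, percent) in each library (horizontal axis). The NLP7 segment is between 10.11% and 10.8% in nid1 and between 11.3% and 13.1% in WT, and NLP5 is the largest segment in each library.

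For each member the gene with the most similar course over the 6 libraries was looked up among genes with a mean of at least 5 FPKM. By Pearson's r over 6 libraries, given as a description, NLP7 was most like SVL1 (AT5G55480), a glycerophosphodiester phosphodiesterase-like gene, at 0.998. NLP6 was most like GLU2 (AT2G41220), a ferredoxin-dependent glutamate synthase, at 0.996, and NLP4 most like the ABC transporter gene ABCC8 (AT3G21250) at 0.999. The best match of all 9 members had its lowest value in WT replicate 2, and its transcript was 2064 bases or longer. From 403 genes for NLP3 to 928 for NLP8 exceeded 0.9 among 15183 compared (15182 for NLP4 and NLP5). Each best match was thus 1 of many such genes, though these were a small part of those compared, and the points share that library.

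Among transcripts of proteins that act on NLPs or upstream of them, no difference was called. The kinases CPK10, CPK30 and CPK32 phosphorylate NLP7 in response to nitrate, KIN10 is the catalytic subunit of the energy-sensing kinase SnRK1, TCP20 binds NLP6 and NLP7, and NRT1.1 is the dual-affinity nitrate transporter and receptor upstream of the calcium signal. Of the 7 genes in this list limma called 0, had 1 lower at an unadjusted p under 0.05 (NRT1.1, against 2.56% of all genes in that direction), and gave a median log2 fold change of -0.02. Groups did not overlap in 2 of them, CPK30 and NRT1.1, both lower in nid1, where 4.79% of all genes lay that way. These genes were listed with earlier results of these data known, so the counts are a description.

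CPK30 measured 22.5, 23.9 and 21.95 FPKM in Col-0 plants and 18.4, 21.7 and 19.1 FPKM in nid1 (log2 fold change -0.20, SE 0.11, limma adjusted p = 0.970). NRT1.1 measured 121, 133 and 138 FPKM in Col-0 plants and 105, 107 and 105 FPKM in nid1 (log2 fold change -0.31, SE 0.12, limma adjusted p = 0.727). In neither gene was WT replicate 2 the lowest WT library. CPK10 measured 31.3 ± 0.555 and 30.8 ± 1.78 FPKM, CPK32 22.7 ± 5.03 and 22.5 ± 1.01 FPKM, and KIN10 30.4 ± 2.43 and 33.0 ± 1.301 FPKM in WT and nid1, respectively. TCP20 measured 20.7 ± 4.02 and 19.7 ± 1.85 FPKM. AT3G60320, annotated as a bZIP domain class transcription factor, measured 21.5 ± 4.43 and 21.7 ± 2.79 FPKM and, like CPK32 and the NLPs, was lowest in WT replicate 2.

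Genes listed as nitrate-response targets mostly had lower means in nid1, without a called member. Whether each of them is induced by nitrate through an NLP was not checked here. Of 28 listed genes 25 passed the filter, and 21 of these had a log2 fold change below 0, with a median of -0.22 against 0.00 over all genes. After adjustment over all genes limma called 0 of the 25. At an unadjusted p under 0.05 it had 4 lower, namely NIA1, NIA2, NRT2.2 and ANR1, against 2.56% of all genes in that direction. Groups did not overlap downward in 8 of 25, against 4.79% of all genes, and upward in 1, BT1, against 5.5%. The list was chosen with earlier results of these data known, so these counts are a description and do not test the list. WT replicate 2 was the lowest library for 3 of 25 genes, against 22.9% of all tested genes and 9 of 9 NLPs. By the longest annotated form, transcripts of the 25 ran from 1099 bases in NRT3.1 to 3205 in NIA2, against 2539 to 4292 in the NLPs. Transcript length and gene group are therefore not separated when targets and NLPs are compared in WT replicate 2. Without that library 20 of 25 lay below 0, with a median of -0.17, 8 lower at an unadjusted p under 0.05 (3.93% of all genes) and 0 called, and with the length trend removed 22 of 25 did, with a median of -0.23, 7 lower at an unadjusted p under 0.05 (4.02% of all genes) and 0 called by limma. The median rested more on nid1 replicate 1: without it 16 of 25 lay below 0, with a median of -0.03. With each of the other 4 libraries left out in turn, 18 to 20 of 25 lay below 0, and the median ranged from -0.31 (nid1 replicate 3 left out) to -0.15 (WT replicate 3 left out). The green shoot markers moved with genotype in the same libraries, all 11 having estimates above 0 (median 1.04 on the log2 scale), and their part in the target values was not tested.

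Among the assimilation genes of this list, the nitrate reductase gene NIA1 measured 66.8, 53.3 and 80.1 FPKM in Col-0 plants and 40.98, 39.98 and 41.4 FPKM in nid1. NIA2, which encodes the main nitrate reductase, measured 367, 365 and 423 FPKM in Col-0 plants and 271, 256 and 245 FPKM in nid1. Every nid1 value of both genes lay below every WT value. Their log2 fold changes were -0.68 (NIA1, SE 0.16) and -0.58 (NIA2, SE 0.14), with limma adjusted p of 0.289 and 0.337. The nitrite reductase gene NIR1 overlapped, with 82.2, 65.1 and 97.1 FPKM in Col-0 plants and 62.3, 61.5 and 77.6 FPKM in nid1. G6PD3, which supplies plastid reductant, measured 13.5 ± 1.42 and 11.1 ± 0.836 FPKM (log2 fold change -0.25, limma adjusted p = 0.881).

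Of the uptake genes, the high-affinity transporter gene NRT2.1 measured 331, 220 and 351 FPKM in Col-0 plants and 199, 199 and 241 FPKM in nid1 (log2 fold change -0.47, limma adjusted p = 0.815), with nid1 replicate 3 above WT replicate 2. Its neighbour NRT2.2 measured 10.8 ± 0.940 and 8.21 ± 0.358 FPKM without overlap (log2 fold change -0.35, limma adjusted p = 0.584), but it is a close copy of NRT2.1 and its value is uncertain. NRT3.1, the partner protein that NRT2.1 needs, measured 297 ± 25.4 and 246 ± 21.8 FPKM without overlap (log2 fold change -0.27, limma adjusted p = 0.947).

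Regulators in the list were less uniform. ANR1, a MADS-box factor of lateral root growth, measured 13.2, 24.8 and 22.4 FPKM in Col-0 plants and 11.1, 10.6 and 7.17 FPKM in nid1. That was the largest difference of the list, at -0.97 (SE 0.25, 95% interval -1.55 to -0.39, limma adjusted p = 0.365). The repressor HRS1 measured 4.10 ± 0.664 and 3.79 ± 0.550 FPKM, and AT1G68670, annotated as a myb-like factor, measured 3.92 ± 0.216 and 2.89 ± 0.747 FPKM without overlap (log2 fold change -0.36, limma adjusted p = 0.840). LBD37, a repressor of nitrogen genes, varied most within the genotypes, with 11.7, 14.7 and 21.9 FPKM in Col-0 plants and 10.99, 19.1 and 33.9 FPKM in nid1 (log2 fold change 0.30, SE 0.38). CYP735A2, a cytokinin hydroxylase gene, measured 17.9 ± 3.45 and 14.6 ± 5.83 FPKM (log2 fold change -0.34, limma adjusted p = 1.00).

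Transcripts of the strongly nitrate-induced BT2 were scarce, from 0.157 to 0.414 FPKM over the 6 libraries, and BT2, LBD39 and AT3G25790 fell under the filter and were not tested. BT1, a close relative of BT2, measured 1.62 ± 0.0598 FPKM in Col-0 plants and 2.05 ± 0.438 FPKM in nid1 (log2 fold change 0.21, limma adjusted p = 1.00).

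**Figure D5:**
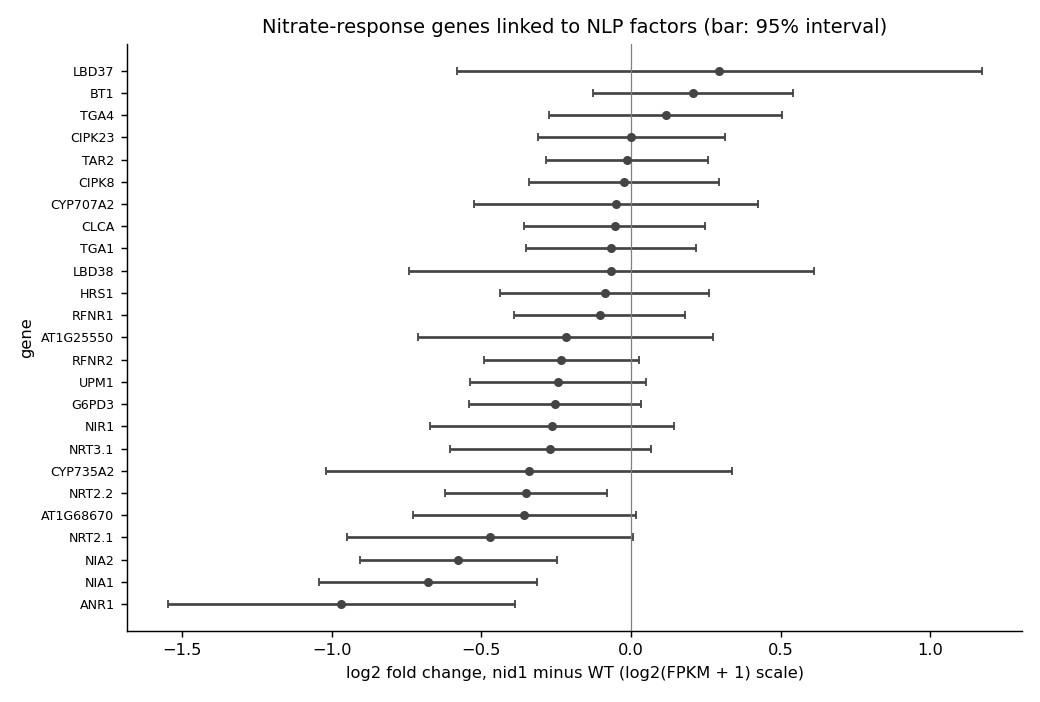
Log2 fold change, nid1 minus WT, on the log2(FPKM + 1) scale (horizontal axis; bar: 95% interval) of the 25 tested genes listed as nitrate-response targets (vertical axis). Of these, 21 lie below 0, from -0.97 in ANR1, and limma called 0 at an adjusted p under 0.05.

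As controls for scale, 7 genes often used as references had a median log2 fold change of 0.01, with 0 called and 0 at an unadjusted p under 0.05 by limma. The phosphatase scaffold subunit gene PP2AA3 measured 33.8 ± 1.76 and 35.0 ± 0.858 FPKM and the actin gene ACT2 451 ± 35.7 and 469 ± 17.8 FPKM in WT and nid1, respectively. Of these 7 none was lowest in WT replicate 2 and 4 were highest there, against 22.9% and 37.3% of all tested genes. Their longest transcript, that of AT2G28390, has 2372 bases, fewer than the 2539 of NLP3, the shortest NLP. Transcript length and gene group are therefore not separated when these genes are set beside the 9 NLP genes.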

How the data were processed

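Polyadenylated RNA of 6 libraries, 3 per genotype, was sequenced as 101-base pairs with a stranded kit, per the labels' protocols. The authors deposited FPKM, 1 value per gene and library. Per the submitters' processing notes the tools were bcl2fastq 2.20, Bowtie, TopHat2 2.0.13 and Cuffdiff 2.2.1, named without roles or order. No source used here gives the build, the strand setting or the scaling between libraries. Of 38150 identifiers, 37932 matched genes of the RefSeq annotation of TAIR10.1, which gave names, coordinates, transcript lengths and sequences.

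Low FPKM values did not fall on clean steps of whole fragments, so no fragment counts were recovered, depth is not known and no interval for counting error is given. Deposited FPKM summed to between 730062 and 964273 per library. Library pairs correlated at 0.970 to 0.990 across genes. Exact zeros can be failed estimates.

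For the genotype effect, limma 3.58.1 (R 4.3.3) was fitted to log2(FPKM + 1) of 20533 genes that reached 1 FPKM in 3 or more libraries. The model held genotype alone, variances were moderated along the mean, and tests were two-sided. P-values were adjusted by Benjamini-Hochberg over these genes and called under 0.05. Fold changes on this scale understate changes of low genes. The fit was also run on simulated data with independent noise in each gene and library. These held no trend on transcript length, so the run does not show how the fit behaves under such a trend. Groups and replicate numbers came from sample titles. Sequences and tables were handled in Python 3.11.15.

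The members and lists were chosen with earlier results of these data known. Named genes were all NLPs, RKDs, partners and 7 target genes whatever their result (NIR1, NIA1, NIA2, NRT2.1, HRS1, LBD37 and BT2). The 6 other targets with the largest change were also named. The gene most like a member was looked up for each member and named for NLP4, NLP6 and NLP7. Of the markers, the highest root and stomatal ones, GL1 and the root ones under the filter were named, and no green shoot one. BT1 and a few others within counts were named after their values were seen. Of the list names, 6 are not in the RefSeq gene table, and these genes are given by locus. Alternatives were a replicate block, each library left out, a pseudocount of 0.1 or of 0.5, filtering at 0.1 FPKM or not at all, rescaling by median ratios, no variance trend and, added after the values were seen, removal of each library's trend on transcript length (lowess, span 0.3).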

Additional observations from a re-analysis of the deposited data

How the results depend on the processing

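None of the 9 NLP genes was called by limma in any of 14 other fits, and the lowest adjusted p was 0.276. Whether replicate numbers pair the libraries is not stated in the labels and was not settled by the values. Deviations of same-numbered libraries correlated at -0.01, 0.13 and 0.30 (replicates 1, 2 and 3). The last was the highest of any WT library with any nid1 library. WT replicate 1 correlated best with nid1 replicate 3 (0.20) and WT replicate 2 with nid1 replicate 1 (0.22). A replicate block changed no NLP call and raised the genes called from 18 to 70, while leaving out single libraries gave 8 to 35. Of 126 refitted NLP log2 fold changes 16 changed sign. With single libraries left out they ranged from -0.075 to 0.061 in NLP1, -0.057 to 0.26 in NLP2, -0.40 to 0.026 in NLP3, -0.013 to 0.21 in NLP4, -0.15 to 0.11 in NLP5, -0.13 to 0.23 in NLP6, -0.16 to 0.21 in NLP8 and -0.23 to 0.090 in NLP9. NLP7 was below 0 in all 14 fits, from -0.38 without WT replicate 2 to -0.00099 without WT replicate 3. The lowest values came without WT replicate 2. Without WT replicate 3 NLP3 stood at 0.026, and without WT replicate 1 NLP9 stood at 0.090. Rescaling by median ratios gave -0.0026 for NLP1, and removing the length trend gave -0.038 for NLP1 and -0.024 for NLP5. The median of the 7 partner genes ranged from -0.14 without WT replicate 2 to 0.0044 without nid1 replicate 3. That of the 25 target genes ranged from -0.31 without nid1 replicate 3 to -0.031 without nid1 replicate 1. The cause of these changes was not tested. Unknown depth, 3 libraries a genotype and the spread of WT replicate 2 limit what could be detected.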
